A study of Drosophila melanogaster with 72 samples.

Results

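Nuclear RNA of fly photoreceptors was examined for the genes whose level set the control apart from all 3 RNAi knockdowns of the H3K4 methyltransferases. The members were chosen by measured values: among 17895 FBgn features, those whose mean log2(CPM + 1) differed in each knockdown (Set1, Trr and Trx RNAi) from the control mean by at least 1.5, in the same direction. CPM is the count of a feature relative to the total count of its library, on the standard CPM scale, and 1 CPM was added before the log2. The rule found 16 genes, of which 10 were higher and 6 were lower in the knockdowns than in control. Since these differences chose the members, they are given below as a description, without a test.

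The nuclei were immuno-enriched by GFP-KASH expressed from Rh1-Gal4, a driver of outer photoreceptors, from heads of 400 male flies per library at D10, under 12 h of light and 12 h of dark at 25 °C. Each RNAi stock was crossed to the driver stock, which carries w1118, the GFP-Msp300KASH transgene in attP2, rh1-GAL4 and ry506. Every group therefore received 1 set of the driver stock's autosomes. The direction of the crosses was not stated, so which X chromosome the males carried, and with it their alleles of w, y, v and sev, is not known. The Set1 RNAi stock carries y1, sc* and v1 with the transgene TRiP.HMS01837, the Trr RNAi stock y1, sc*, v1 and sev21 with TRiP.HMS01019, and the Trx RNAi stock y1 and v1 with TRiP.HMS00580. The control RNAi against mCherry, a fluorescent protein without a fly gene, came from a laboratory stock of the type yv. All RNAi transgenes lie in attP2, and the 3 TRiP transgenes carry y+ and v+ markers. Each genotype was sampled at ZT0, ZT4, ZT8, ZT12, ZT16 and ZT20 with 3 replicates, where ZT is the time in h after lights on. Set1 RNAi and control libraries were sequenced on one instrument model and Trr RNAi and Trx RNAi libraries on another. Each genotype is 1 stock, so the knockdown, the stock background and, for Trr RNAi and Trx RNAi, the instrument cannot be told apart.

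Set1, Trr and Trx are the catalytic subunits of the fly COMPASS complexes, which methylate lysine 4 of histone H3 at promoters and enhancers of active genes. Fly stocks kept apart carry different alleles, insertions and deletions, and a gene near such a difference can be expressed at another level in one stock than in another whatever the transgene does. A gene that differs from control by a like amount with several unrelated RNAi constructs is therefore often looked at for its position and its neighbours. Genes of this kind can also belong to a shared response, and in a bulk sample a smaller number of cells of a type and less RNA per cell give the same reading.

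The 71 libraries used held 8424081 to 24586538 counts (median 13384021), and a further library, Set1 RNAi ZT20 replicate 1, held 687 counts with 0 on the members and was left out. Below, the names Set1 RNAi, Trr RNAi, Trx RNAi and control stand for the libraries so labelled. The targeted transcripts did not separate these labels: Set1 had a log2 fold change of -0.03 ± 0.07 (SE) with Set1 RNAi, trx of -0.17 ± 0.05 with Trx RNAi, and trr of -0.94 ± 0.06 with Trr RNAi and -0.86 ± 0.06 with Trx RNAi. On CPM without TMM, the correction for composition described below, the sign of trx turned (a log2 difference of 0.53) as did that of Set1 (0.04), and those of trr were -0.30 and -0.15. The paper describes its nuclear RNA-seq as mainly a readout of pre-mRNA, so loss of mature mRNA was not measured here. It examined the RNAi lines by qRT-PCR under tub-Gal4. It also reported less H3K4 trimethylation, by western blot of larvae for Set1 RNAi and by CUT&RUN of photoreceptors for Trx RNAi and Trr RNAi. Control ZT12 replicate 1 had the fewest features with a count (10229, against a median of 18571), and 5 of the higher members, CG34227, pre-rRNA:CR45846, tfc, v and lncRNA:CR45556, were at 0 in it. Set1 RNAi ZT12 replicate 3 was the sparsest of its genotype, with 13400 features, and CG31516 and Osi2 were at 0 in it. Outer photoreceptor markers, 14 of 14 detected, summed to 49200 to 73300 CPM with Set1 RNAi, 18700 to 28900 with Trr RNAi, 19100 to 31800 with Trx RNAi and 51400 to 91800 in control. Markers of muscle (8 of 8), inner photoreceptors (4 of 4), glia (5 of 6) and fat body (5 of 7) were higher than control in both Trr RNAi and Trx RNAi, while with Set1 RNAi the same lists had 1, 0, 1 and 0 genes higher.

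**Figure D1:**
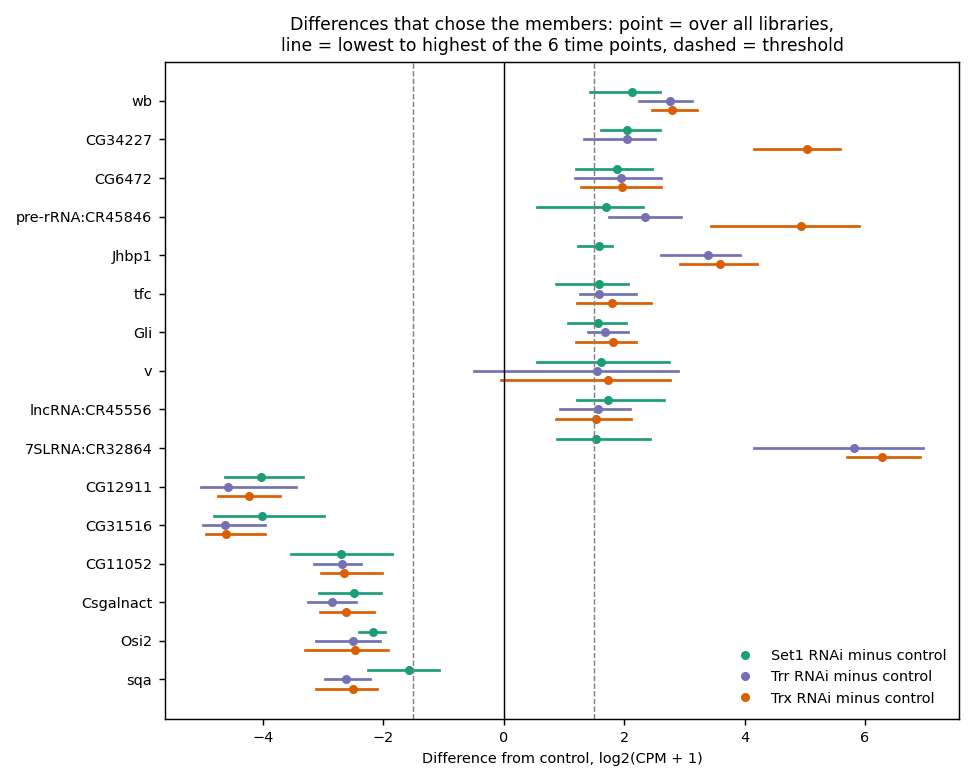
Difference from control for the 16 members (rows) on the log2(CPM + 1) scale, with Set1 RNAi above Trr RNAi and Trx RNAi in each row. Points are differences of means over all libraries, lines run from the lowest to the highest of the 6 time points, and dashed lines mark the threshold of 1.5; the v lines for Trr RNAi and Trx RNAi cross 0.

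The lower members were few and far below control. CG12911 had 1.74 to 4.13 CPM (median 2.48) with Set1 RNAi, 0.482 to 2.56 (median 1.502) with Trr RNAi and 1.23 to 4.29 (median 2.13) with Trx RNAi, against 24.4 to 107.6 (median 58.9) in control. Its neighbour Csgalnact, which encodes a chondroitin sulfate N-acetylgalactosaminyltransferase that acts in building sulfated sugar chains, had 8.19 to 23.7 CPM (median 18.6) with Set1 RNAi, 9.51 to 16.7 (median 13.9) with Trr RNAi and 13.2 to 19.3 (median 16.5) with Trx RNAi, against 68.4 to 153.1 (median 104.0) in control. No knockdown library reached the lowest control library for either gene. The differences from control were -4.04, -4.58 and -4.23 for CG12911 and -2.48, -2.86 and -2.62 for Csgalnact with Set1 RNAi, Trr RNAi and Trx RNAi in that order.

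CG31516 was close to absent in the knockdowns. It had 0 to 4.39 CPM (median 1.11) with Set1 RNAi, 0.063 to 1.36 (median 0.353) with Trr RNAi and 0.118 to 0.923 (median 0.351) with Trx RNAi, against 18.2 to 45.7 (median 37.0) in control. In counts, this was at most 51 per knockdown library and at least 238 per control library. CG11052 had 2.27 to 10.3 CPM (median 7.80) with Set1 RNAi, 3.64 to 15.2 (median 5.74) with Trr RNAi and 4.58 to 8.52 (median 6.56) with Trx RNAi, against 28.7 to 73.2 (median 45.7) in control. For both genes, too, the knockdown and control libraries did not overlap, and the differences from control were -4.02 to -4.63 for CG31516 and -2.65 to -2.70 for CG11052.

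The 2 other lower members overlapped with control in some libraries. Osi2, a gene of the insect Osiris family of membrane proteins, had 0 to 4.07 CPM (median 1.12) with Set1 RNAi, 0.211 to 1.67 (median 0.764) with Trr RNAi and 0.406 to 1.65 (median 0.780) with Trx RNAi, against 3.12 to 32.1 (median 9.76) in control. The lowest of the control libraries lay within the range of Set1 RNAi. Spaghetti-squash activator (sqa), a kinase related to myosin light chain kinases, had 26.3 to 112.5 CPM (median 60.1) with Set1 RNAi, 12.7 to 48.7 (median 26.6) with Trr RNAi and 17.7 to 37.0 (median 30.7) with Trx RNAi, against 71.7 to 281.3 (median 169.6) in control. Here 7 Set1 RNAi libraries were within the control range.

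Of the higher members, wing blister (wb), which encodes a laminin alpha chain of the extracellular matrix, was the only one in which every knockdown library lay above every control library. It had 33.2 to 86.2 CPM (median 44.8) with Set1 RNAi, 48.7 to 97.8 (median 71.5) with Trr RNAi and 49.97 to 98.7 (median 70.0) with Trx RNAi, against 5.98 to 19.3 (median 8.90) in control. CG6472 had 9.38 to 37.2 CPM (median 24.7) with Set1 RNAi, 17.6 to 28.7 (median 22.4) with Trr RNAi and 18.7 to 26.2 (median 23.0) with Trx RNAi, against 2.54 to 11.4 (median 5.30) in control. Its 3 differences from control were nearly equal (1.88, 1.95 and 1.97), and 1 Set1 RNAi library, ZT12 replicate 3, fell into the control range.

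Gliotactin (Gli), a cell adhesion protein of tricellular septate junctions that is also used in peripheral glia, had 16.6 to 51.4 CPM (median 30.0) with Set1 RNAi, 22.6 to 40.4 (median 30.9) with Trr RNAi and 22.4 to 49.5 (median 33.0) with Trx RNAi, against 1.995 to 17.3 (median 9.21) in control. Only 1 Set1 RNAi library fell into the control range. The glial marker list summed to 189 to 1630 CPM (median 575) with Set1 RNAi, 511 to 910 (median 723) with Trr RNAi and 663 to 947 (median 767) with Trx RNAi, against 106 to 838 (median 188) in control. With Set1 RNAi only 1 of its 6 genes was called higher, and the median log2 fold change of the list was 0.1. The part of glial RNA in the Gli values was not tested. Jhbp1, named as a juvenile hormone binding protein, had 3.92 to 13.8 CPM (median 6.69) with Set1 RNAi, 16.5 to 38.2 (median 29.7) with Trr RNAi and 17.9 to 49.1 (median 33.9) with Trx RNAi, against 1.02 to 4.11 (median 1.64) in control. The fat body list summed to 896 to 1980 CPM with Set1 RNAi, 8590 to 13500 with Trr RNAi and 7470 to 14200 with Trx RNAi, against 858 to 1860 in control, and its part in the Jhbp1 values was not tested.

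Vermilion (v) encodes tryptophan 2,3-dioxygenase, the first enzyme of the pathway to the brown ommochrome eye pigments, and v1 is a mutant allele carried by the RNAi stocks. It had 8.89 to 71.8 CPM (median 17.5) with Set1 RNAi, 14.2 to 28.8 (median 22.3) with Trr RNAi and 16.8 to 31.0 (median 25.0) with Trx RNAi, against 0 to 36.2 (median 6.64) in control. Of the knockdown libraries, 47 of 53 were within the control range, which the ZT4 control libraries extended upward. The transgene markers do not separate the groups by label alone, because v+ is on the 3 TRiP transgenes and the control stock's transgene is also written with v+, and reads from the transgene and from the X-chromosomal gene were not separated in the counts. The lens and pigment cell list, which includes w, summed to 1210 to 5330 CPM with Set1 RNAi, 415 to 775 with Trr RNAi and 460 to 899 with Trx RNAi, against 462 to 4930 in control. Its median sums were 2340 CPM with Set1 RNAi and 936 in control, where w alone had medians of 2123 and 598. Of its 8 genes, 5 were called higher and 2 lower with each of Trr RNAi and Trx RNAi, and 1 higher with Set1 RNAi. The part of these cells in the v values was not tested.

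No other eye colour or body colour marker of these stocks differed from control by 1.5 or more in the same direction in all 3 knockdowns. White (w), the pigment precursor transporter that also serves as a transgene marker, had a median of 2123 CPM in Set1, 72.1 in Trr and 99.2 in Trx RNAi libraries, against 598 in control, with log2 fold changes of 1.46, -3.75 and -3.27 against control. Yellow (y) had log2 fold changes of 0.78, -0.31 and -0.59, and rosy (ry) of 0.48, -0.20 and -0.37, and on CPM without TMM the signs with Trr RNAi and Trx RNAi turned for both genes (0.32 and 0.12 for y, 0.44 and 0.34 for ry). Sevenless (sev), a receptor tyrosine kinase of the R7 photoreceptor whose sev21 allele is listed for the Trr RNAi stock alone, had a median of 15.4 CPM in Set1, 87.2 in Trr and 92.2 in Trx RNAi libraries, against 12.9 in control. Among y, w, v, sc, sev and ry, v was the only member. On CPM without TMM, y, ry and sev were above control in all 3 knockdowns, sev by only 0.21 with Set1 RNAi. The differences of sc were 0.01, -0.14 and -0.13 with Set1 RNAi, Trr RNAi and Trx RNAi.

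Other higher members have no role given here. The gene tfc had medians of 5.46 CPM in Set1, 5.08 in Trr and 6.11 in Trx RNAi libraries, against 1.02 in control, and its highest control library had 3.25. CG34227 had 3.06 to 14.4 CPM (median 7.51) with Set1 RNAi, 2.09 to 13.5 (median 7.06) with Trr RNAi and 34.2 to 98.1 (median 62.9) with Trx RNAi, against 0 to 2.26 (median 0.927) in control. Thus CG34227 was far higher with Trx RNAi than in any other genotype. The noncoding lncRNA:CR45556 had medians of 11.1 CPM in Set1, 10.7 in Trr and 10.2 in Trx RNAi libraries, against 3.47 in control, whose highest library had 5.72.

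The 2 remaining members are structural RNAs. The 7SLRNA:CR32864 gene encodes the RNA of the signal recognition particle, which directs ribosomes to the endoplasmic reticulum. It had 25.3 to 145.3 CPM (median 40.9) with Set1 RNAi, 289.7 to 2339 (median 903) with Trr RNAi and 655 to 2622 (median 1311) with Trx RNAi, against 5.55 to 78.4 (median 14.4) in control. The ribosomal RNA precursor pre-rRNA:CR45846 had 0.891 to 8.04 CPM (median 2.73) with Set1 RNAi, 2.37 to 16.02 (median 4.83) with Trr RNAi and 16.4 to 71.7 (median 39.8) with Trx RNAi, against 0 to 3.04 (median 0.095) in control, where 6 of 18 libraries were at 0. Both values are uncertain as levels, since 7SL and rDNA genes have near-identical copies among which read pairs can be split or left out, and the libraries were depleted of rRNA. The 7SL copy 7SLRNA:CR42652, 2071 bases away, had differences from control of 0.17, 2.17 and 2.70 with Set1 RNAi, Trr RNAi and Trx RNAi. In the same order, the precursor feature pre-rRNA:CR45845 had 0.37, 3.09 and 4.21, and pre-rRNA:CR45847 had 0.24, 0.59 and 1.13. None of these copies is a member.

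**Figure D2:**
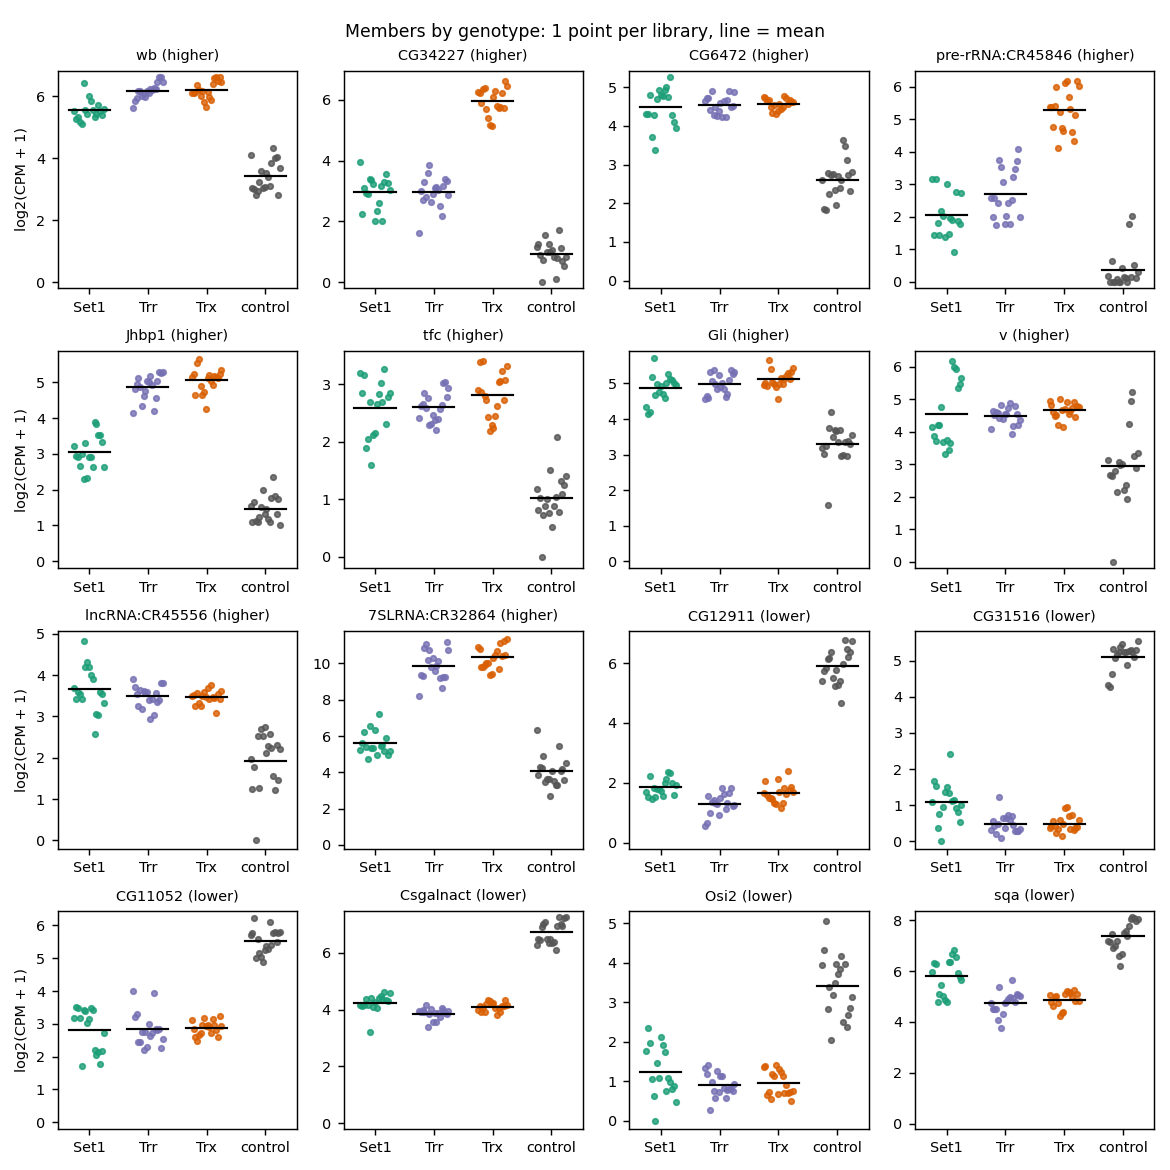
Level of each member in log2(CPM + 1) by genotype, Set1 RNAi (n = 17), Trr RNAi, Trx RNAi and control (n = 18 each), with 1 point per library and a line at the mean. CG12911, CG31516, CG11052, Csgalnact and wb show no overlap of any knockdown library with control, and v shows wide spread with Set1 RNAi and in control.

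With a call defined in edgeR's quasi-likelihood test as a Benjamini-Hochberg p below 0.01 together with a log2 change of 1 or more either way, all 16 members passed in each knockdown, in the direction of the rule. Over all 14767 features tested, 7.26% were called higher and 1.66% lower with Set1 RNAi, 28.5% higher and 17.9% lower with Trr RNAi, and 28.5% higher and 18.7% lower with Trx RNAi. The rule used these contrasts, so nothing is read from the members' count. All 16 members passed the filter on low counts, and 8 had at least 1 CPM in every library. The 3 comparisons share the control libraries. Of the FBgn features tested, 0.0829% had every knockdown library above every control library and 0.0415% had every one below, which held for 1 of the 10 higher and 4 of the 6 lower members.

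Scaling moved the sizes. The TMM factors, edgeR's correction for composition, were 0.759 to 0.902 with Set1 RNAi, 1.118 to 1.309 with Trr RNAi and 1.152 to 1.361 with Trx RNAi, against 0.718 to 0.894 in control. With file totals in place of TMM, the median of all features tested moved from 0.08 to 0.71 for Trr RNAi against control, from 0.09 to 0.78 for Trx RNAi, and from 0.01 to 0.07 for Set1 RNAi. The calls that were higher made up 80.4% of all calls for Trr RNAi and 82.0% for Trx RNAi with file totals, and 61.4% and 60.3% with TMM. No member changed direction against control under either scaling, but nothing is read from this. The rule asked for 1.5 on file totals, and the mean log2 TMM factor differed from that of control by only 0.06 to 0.70. With TMM-scaled totals the rule kept 4 higher members in place of 10, and all 6 lower members. On TMM, the smallest rises with Trr RNAi and Trx RNAi were those of v (1.0 with Trr RNAi and 1.11 with Trx RNAi), lncRNA:CR45556 (1.14 and 1.04) and Gli (1.09 and 1.15). Without control ZT12 replicate 1 the value for Trr RNAi was 0.89 for v and 0.98 for Gli, and that for Trx RNAi was 0.95 for lncRNA:CR45556, each below the fold threshold. The calls of v with Trr RNAi and Trx RNAi and of Gli with Trr RNAi were also lost without replicate 1 of every group, and that of v with Trr RNAi without replicate 3 or with only the compared genotypes fitted. Calls were also lost with RUVs, a method of the RUVseq package that estimates unwanted variation from replicates. With 3 factors the values with Trr RNAi and Trx RNAi were 0.44 and 0.51 for v and 0.63 and 0.68 for Gli, that of CG34227 with Trr RNAi was 0.29 (adjusted p = 0.611, edgeR), and the members called numbered 13 for Trr RNAi and 14 for Trx RNAi. Under 1 factor 14 and 13 were called, v and Gli were lost in both, and lncRNA:CR45556 was lost with Trx RNAi (0.95). All 16 were called with Set1 RNAi under either number of factors. The log2 fold change of 7SLRNA:CR32864 with Set1 RNAi was 1.54, and 0.97 without replicate 3 of every group.

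The members nearest inside the threshold were 7SLRNA:CR32864, lncRNA:CR45556 and v, with smallest differences of 1.54, 1.54 and 1.55. RhoGEF64C, CG43996 and CG43108 were nearest outside it, with smallest differences of 1.48, 1.47 and 1.46. The line between them is therefore narrow for the higher genes. Among the lower members sqa, at 1.58, lay nearest.

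When the rule was applied to replicates other than 1, it chose 8 higher genes, of which 6 were members, and in the replicate left out 8 of 8 kept their direction in every knockdown while 4 of 8 passed 1.5 again. Applied without replicate 2, it chose 10 higher genes, all members, of which 10 kept their direction and 5 passed 1.5 in replicate 2. Without replicate 3 it chose 11, of which 8 were members, 11 kept their direction and 4 passed 1.5. The 6 lower members were chosen each time, and in the replicate left out 6, 5 and 6 of them passed 1.5 again, with smallest differences of 1.45 or more. Of the lower members, sqa was nearest to the threshold in each replicate left out, at 1.67, 1.45 and 1.63. The higher members wb, CG34227 and CG6472 passed 1.5 in every replicate left out. The replicates of a genotype come from 1 stock, so this bears on the repeatability of the measurement alone.

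Comparisons between knockdowns use no control library, and the rule set no threshold on them. They do use the knockdown means by which the members were chosen, so they are not independent of the rule. Between Trr RNAi and Trx RNAi, 2 of 16 members passed the test, against 1.14% of all features tested. CG34227 was lower with Trr RNAi than with Trx RNAi (log2 fold change -3.06 ± 0.16 SE, adjusted p = 2.78e-22, edgeR), with no overlap between the 18 libraries of each. The precursor pre-rRNA:CR45846 was lower with Trr RNAi as well (-2.63 ± 0.23, adjusted p = 2.05e-13, edgeR), again without overlap. In every alternative that could be fitted both stayed past the threshold, with values of -3.16 to -2.98 for CG34227 and -2.84 to -2.58 for pre-rRNA:CR45846. The other 14 members had values between -0.46 and 0.10, so that most members differed little between the 2 knockdowns, as did most features.

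Trr RNAi and Trx RNAi were each set against Set1 RNAi. Of 16 members, 6 passed the test for Trr RNAi against Set1 RNAi, beside 46.7% of all features, and 7 for Trx RNAi against Set1 RNAi, beside 46.5%, so both shares were near the background. Among the higher members, 7SLRNA:CR32864 was higher with Trr RNAi (3.67 ± 0.23) and with Trx RNAi (4.02 ± 0.24) than with Set1 RNAi, as was Jhbp1 (1.38 ± 0.11 and 1.5 ± 0.11). CG34227 and pre-rRNA:CR45846 were higher with Trx RNAi alone (2.51 ± 0.17 and 2.91 ± 0.26). The 6 higher members that passed against Set1 RNAi in neither knockdown had values of -0.89 to 0.05. With 3 RUVs factors removed, the values of Jhbp1 were 0.38 and 0.49 and that of CG34227 was 0.30, and these calls and that of pre-rRNA:CR45846 with Trx RNAi were lost.

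Among the lower members, 4 of 6 were lower with Trr RNAi than with Set1 RNAi and 3 of 6 with Trx RNAi. CG31516 had log2 fold changes of -2.07 ± 0.22 with Trr RNAi and -2.14 ± 0.22 with Trx RNAi against Set1 RNAi, and sqa of -1.63 ± 0.09 and -1.62 ± 0.09. Osi2 followed with -1.20 ± 0.23 and -1.16 ± 0.23, and CG12911 passed with Trr RNAi alone (-1.35 ± 0.15). On file totals, CG31516 kept both calls (-1.51 and -1.5) and sqa the one with Trr RNAi (-1.06), while the value of sqa with Trx RNAi was -0.98 and CG12911 and Osi2 fell short of a fold of 1. The instrument differs between these groups, as does the sum of the outer photoreceptor markers given above, and their part was not tested.

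**Figure D3:**
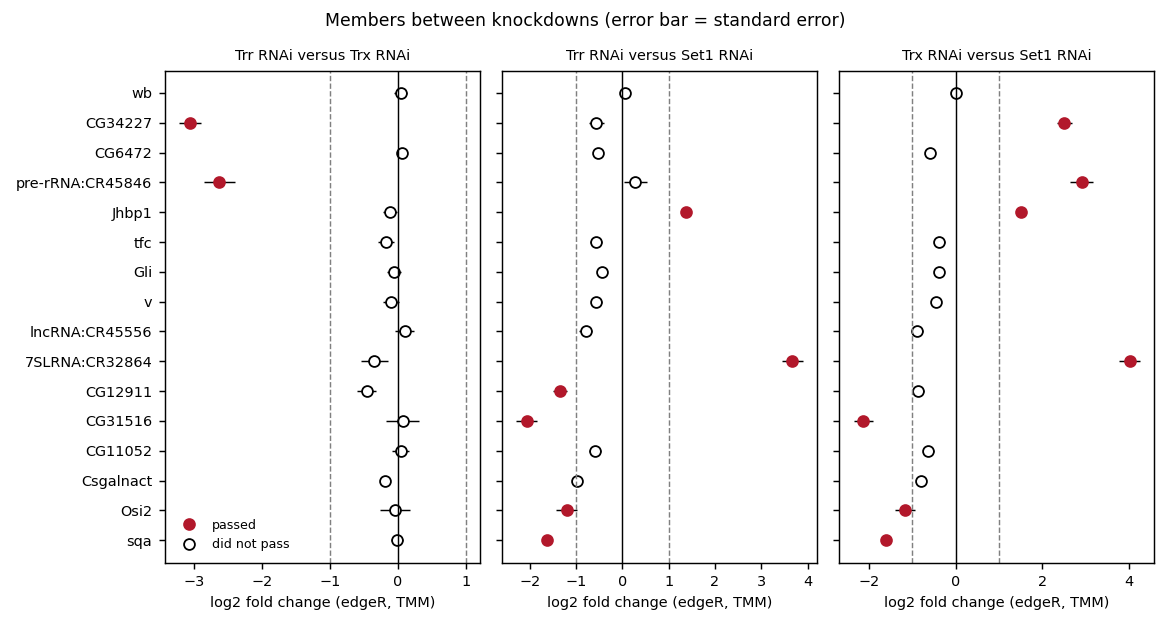
log2 fold change between knockdowns for the 16 members (edgeR, TMM), with horizontal bars of 1 standard error, red where the test passed and open where it did not. CG34227 and pre-rRNA:CR45846 stand at -3.06 and -2.63 in Trr RNAi versus Trx RNAi, and the other members lie near 0 there.

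The time of day gave a further reading that the rule did not use. A 24-h cosine was tested within each genotype, at an adjusted p under 0.05. With Set1 RNAi 10 of 16 members were rhythmic, beside 34.1% of all features tested. With Trr RNAi 2 of 16 passed, beside 5.88%, and with Trx RNAi 0 of 16, beside 4.06%, and the part of the other instrument in these lower counts was not tested. In control 9 of 16 passed, beside 42.6% of all features. With Trx RNAi 3 members had an unadjusted p under 0.05 in edgeR, wb (adjusted p = 0.0551), tfc (0.0907) and Osi2 (0.297), and DESeq2 called 2 members there.

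**Figure D4:**
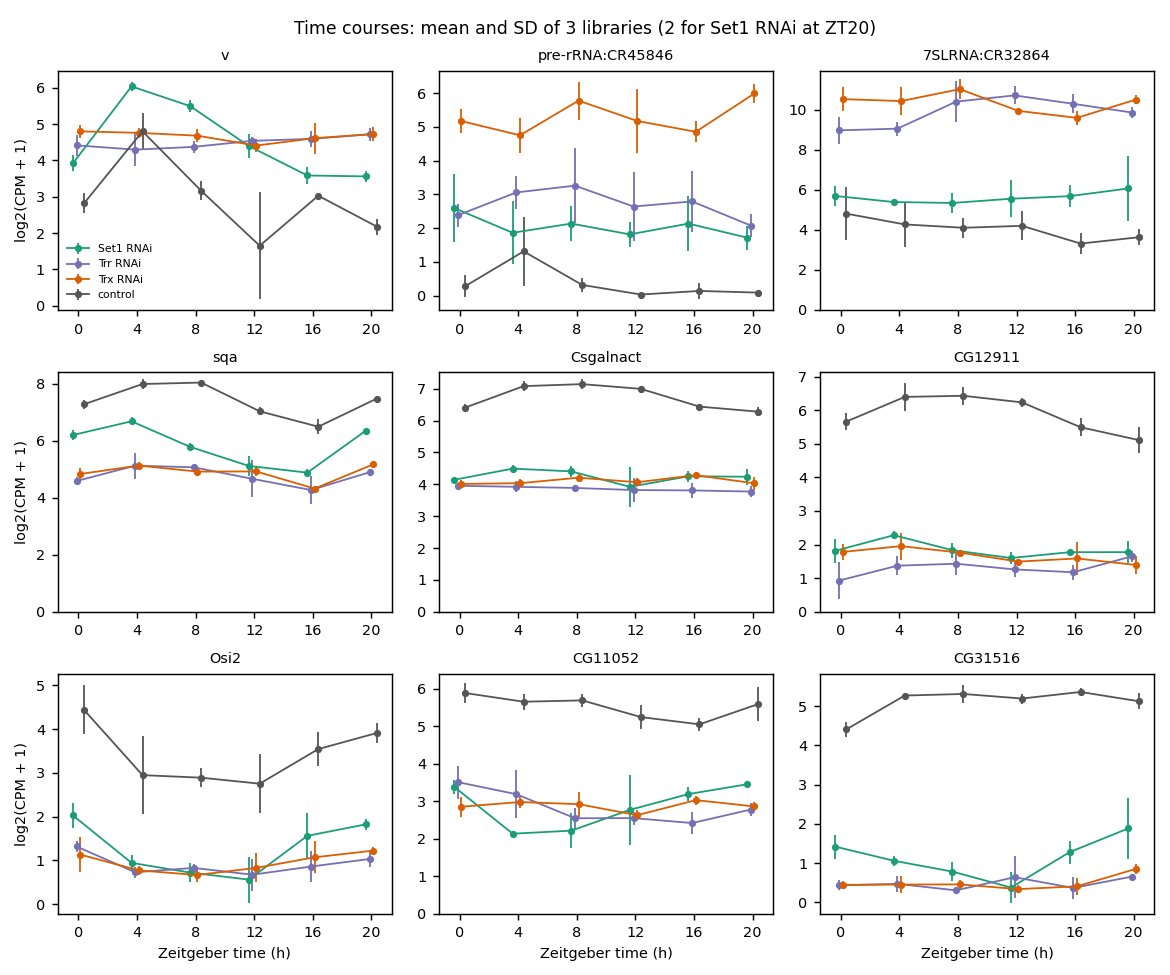
Time course of 9 members in log2(CPM + 1) against zeitgeber time in h; points are means of 3 libraries (2 for Set1 RNAi at ZT20), bars are SDs. The v curves of Set1 RNAi and control peak at ZT4 while those of Trr RNAi and Trx RNAi stay level, and Csgalnact and CG12911 vary by day in control.

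Vermilion had the widest rhythm of the higher members. At ZT4 it had 71.8, 63.3 and 59.7 CPM with Set1 RNAi, 14.2, 17.0 and 26.7 in the Trr knockdown, and 24.0, 25.4 and 29.1 in the Trx knockdown, against 18.0, 29.8 and 36.2 in control. At ZT16 it had 12.0, 8.89 and 12.4 with Set1 RNAi, 27.3, 20.1 and 22.6 in the Trr knockdown, and 31.0, 24.7 and 16.8 in the Trx knockdown, against 7.39, 6.95 and 7.15 in control. At ZT4 the differences from control were -0.50 with Trr RNAi and -0.04 with Trx RNAi on log2(CPM + 1), and at the 5 other times both were above 0. The fitted peak-to-trough range on log2(CPM + 1) was 2.58 with Set1 RNAi (adjusted p = 2.76e-08), 0.38 with Trr RNAi (0.811), 0.33 with Trx RNAi (1.0) and 1.90 in control (5.36e-06). The rhythm differed from control with Trr RNAi (adjusted p = 0.000567, edgeR, past the threshold in all 14 alternatives) and with Trx RNAi (0.0114), where it was lost in 3 of 14 (leaving out replicate 2 or replicate 3, or fitting the compared genotypes alone). With Set1 RNAi the difference from control did not pass (0.264).

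The adjacent genes Csgalnact and CG12911 were rhythmic in control, with peaks fitted at 7.9 h and 7.5 h, peak-to-trough ranges of 0.99 and 1.39, and adjusted p of 2.23e-06 and 3.87e-05. In control, Csgalnact averaged 141.0 ± 15.8 CPM at ZT8 and 77.0 ± 7.67 at ZT20 (SD, n = 3). Neither gene passed in any knockdown, with ranges of 0.16 to 0.30 for Csgalnact and 0.09 to 0.47 for CG12911. The rhythm of Csgalnact differed from control with Trr RNAi (adjusted p = 0.00248) and with Trx RNAi (0.00356), and that of CG12911 with Trr RNAi (0.00972). For Csgalnact with Trr RNAi the call held in all 15 alternatives; that for Trx RNAi was lost without replicate 1 and without replicate 2, and that of CG12911 without replicate 2 and without replicate 3. CG12911 had medians of 31 counts in Set1, 23.5 in Trr and 32.5 in Trx RNAi libraries, against 684 in control, so its time courses in the knockdowns rest on few counts. The added 1 CPM also narrows the ranges of CG12911 in the knockdowns.

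The lower members sqa and Osi2 kept a rhythm with Set1 RNAi at a lower level. The kinase sqa had ranges of 1.66 with Set1 RNAi (peak 2.0 h, adjusted p = 3.03e-07) and 1.28 in control (peak 4.5 h, 0.00033), and Osi2 of 1.55 (peak 21.2 h, 1.31e-05) and 1.57 (peak 21.6 h, 1.2e-05). Neither showed a change of rhythm that passed with any knockdown, the lowest adjusted p being 0.147 for sqa with Set1 RNAi. The ranges with Trr RNAi and Trx RNAi were 0.62 and 0.43 for sqa and 0.49 and 0.57 for Osi2, none of which passed. At Osi2, where knockdown libraries had medians of 14 counts or fewer, the added 1 CPM narrows the range.

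CG31516 and CG11052 were rhythmic with Set1 RNAi and did not pass in control. CG31516 had a range of 1.21 with Set1 RNAi (peak 21.5 h, adjusted p = 0.000127) and 0.62 in control (0.212), and the change passed (0.00309). CG11052 had 1.43 (peak 19.3 h, 8.45e-05) and 0.72 (0.0587), and its change passed too (0.0104). The control rhythm of CG11052 passed in 6 of 15 alternatives, among them DESeq2 and file totals. Both changes were lost without replicate 2, that of CG31516 also without replicate 3, and that of CG11052 also without replicate 1 and with only the compared genotypes fitted. CG11052 was the member with the clearest rhythm with Trr RNAi (range 1.02, peak 1.2 h, adjusted p = 0.00103), which was lost without replicate 1. The time course of CG31516 with Set1 RNAi rests on few counts, with a median of 13 per library. At this level the added 1 CPM narrows the fitted range. With Set1 RNAi, CG31516 averaged 0.332 CPM at ZT12 (n = 3) and 2.96 at ZT20 (n = 2).

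Changes of rhythm also passed for 3 higher members other than v. Those of pre-rRNA:CR45846 passed with Set1 RNAi (0.0335), Trr RNAi (0.0058) and Trx RNAi (0.00249), and rest on a control time course in which replicates 1 and 3 at ZT4 had 2.44 and 3.04 CPM and all other control libraries at most 0.564. All 3 were lost without replicate 1. That of 7SLRNA:CR32864 with Trr RNAi passed (0.000639, lost without replicate 1), and that of wb with Set1 RNAi (0.0273) was lost when any replicate was left out. In all, 4 of 16 members had a changed rhythm with Set1 RNAi, beside 3.6% of all features, 5 with Trr RNAi, beside 21.0%, and 3 with Trx RNAi, beside 17.6%. Without control ZT12 replicate 1 the number with Trx RNAi was 5, and without replicate 2 the number with Set1 RNAi was 0.

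The remaining rhythms passed with Set1 RNAi or in control alone. With Set1 RNAi, tfc (range 1.09, adjusted p = 0.000875), Jhbp1 (0.85, 0.00825), Gli (0.79, 0.00922) and CG6472 (0.83, 0.028) varied by time of day. The rhythm of CG6472 was lost in 5 of 15 alternatives, among them without replicate 1, without replicate 3 and without Set1 RNAi ZT12 replicate 3, with an adjusted p of up to 0.535, and those of Jhbp1 and Gli were lost without replicate 2, that of Jhbp1 also with only the compared genotypes fitted. In control, wb (0.76, 0.00257) and lncRNA:CR45556 (0.76, 0.0105) did, and lncRNA:CR45556 also with Set1 RNAi (1.18, 0.00121). The rhythm of lncRNA:CR45556 was lost without replicate 3 in both, and in control also without replicate 2 and with only the compared genotypes fitted. The control rhythm of wb was lost with only the compared genotypes fitted. No member outside those named had an adjusted p under 0.05 in any genotype, except pre-rRNA:CR45846 in control (0.000351) and 7SLRNA:CR32864 in control (0.0461) and with Trr RNAi (0.0127).

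By position, in the BDGP6.46 coordinates of the files, 5 of 16 members lie on 2R, 6 on 3R, 2 on 2L, 1 on 3L, 1 on X and 1 on the rDNA scaffold, beside 20.9%, 23.9%, 18.4%, 19.7%, 16.2% and 0.191% (all small scaffolds together) of the 12060 FBgn features tested. The 6 lower members lie on 2R and 3R, 3 on each. Csgalnact (2R:10249220-10255495, plus strand) and CG12911 (2R:10256686-10261276, plus strand) are next to each other with 1191 bases between them. They are the only neighbouring members, and sqa (2R:9716348-9748121, minus strand) lies 501099 bases away. An annotated copy of a transposable element lies within the 31774 bases spanned by sqa. It belongs to the reference coordinates, and whether the stocks differ there was not tested.

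Genes beside the members were read as well, within 50 kb on each side. Of 193 tested FBgn neighbours that are not members, 7 (3.63%) were called higher and 4 (2.07%) lower with all 3 knockdowns, beside 1.43% higher and 0.522% lower over all FBgn features tested. Downstream of CG12911, lncRNA:CR30009 averaged 1.02 ± 0.61 CPM in Set1 (SD, n = 17), 0.29 ± 0.19 in Trr and 0.64 ± 0.22 in Trx RNAi libraries, against 3.01 ± 1.0 in control (n = 18 each). Synaptobrevin (Syb), a vesicle fusion protein gene that overlaps Csgalnact on the other strand, had differences of 0.11, 1.26 and 1.42, so Syb was not lower in any knockdown. In Csgalnact, 7.5% of exon bases are shared with Syb and CG12914.

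CG31516 (3R:4218463-4220130, minus strand) lies inside auxilin (aux), a cofactor of clathrin uncoating on the plus strand, and its exons overlap no other exon. Auxilin had differences of -0.89, -1.08 and -0.99 from control, in the same direction and smaller than those of CG31516. CG2767, which starts 1.19 kb from CG11052 (3R:8008249-8009297, minus strand), had differences of -2.16 in Set1, -0.51 in Trr and -0.37 in Trx RNAi libraries, and CG3223 on the other side -0.66, 0.12 and 0.19. Osi24, a gene of the same family 1695 bases from Osi2 (3R:6209373-6213493, plus strand), averaged 4.08 ± 3.35 CPM in Set1, 3.70 ± 0.88 in Trr and 3.28 ± 0.64 in Trx RNAi libraries, against 12.09 ± 12.56 in control (SD), where its spread was as large as its mean. Beside CG31516 the neighbour called lower with all 3 knockdowns was CG14644, 31764 bases away and low throughout, with means of 0.72 CPM in Set1, 0.55 in Trr and 0.62 in Trx RNAi libraries, against 1.53 in control, and aux was not called with all 3. These calls were made on TMM, and on log2(CPM + 1) the differences were smaller than 1 for CG14644 and Osi24 in every knockdown and for CG2767 in the Trr and Trx RNAi libraries. No neighbour of sqa was called lower with all 3.

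Around wb (2L:14263027-14328262, plus strand), the nested lncRNA:CR43640 and lncRNA:CR43639 were called higher in all 3 knockdowns, with differences of 1.26, 1.44 and 1.63 and of 0.90, 0.89 and 1.07. The counting did not use strand, and read pairs of unspliced wb RNA in its introns cannot be told apart from those of lncRNAs nested there. CG6472 (2R:16880713-16884695, plus strand) lies inside CG8910 on the other strand, which had differences of 1.34, 1.51 and 1.51, and 3 genes 5736 to 7807 bases upstream of it, CG6421, CG6429 and CG6435, were called higher with all 3 knockdowns. The lncRNA:CR45556 gene (3R:32012648-32013408, plus strand) lies inside hephaestus (heph), the polypyrimidine tract binding protein gene, on the other strand. Hephaestus had differences of 0.65, 1.96 and 1.82, and those of lncRNA:CR45556 were 1.74, 1.56 and 1.54. CG2003, 21739 bases from lncRNA:CR45556, was called higher with all 3 knockdowns, with differences of 1.29, 1.66 and 1.55.

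**Figure D5:**
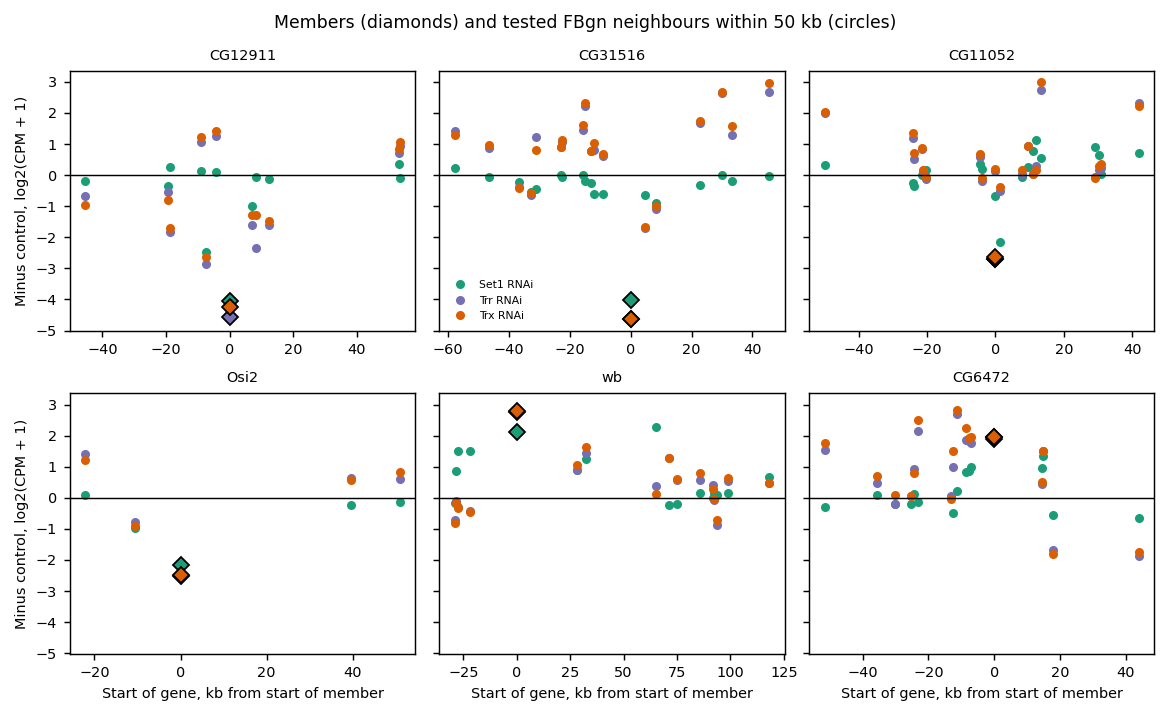
Difference from control in log2(CPM + 1) for 6 members (diamonds) and the tested FBgn neighbours within 50 kb of them (circles), by the distance in kb of each gene's start from the member's start, along the member's strand. At CG12911 the neighbouring member Csgalnact is low in all 3 knockdowns, and at CG11052 the near gene CG2767 is low with Set1 RNAi.

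For each of the other higher members, at most 1 tested neighbour was called higher with all 3 knockdowns. None of the tested neighbours of CG34227 (2R:11248126-11248610), Jhbp1 (3R:4965445-4968485), Gli (2L:15756002-15762758), v (X:10923972-10925631) or 7SLRNA:CR32864 (3R:6822500-6822798) was called higher with all 3 knockdowns, and 1 of 24 was beside tfc (3L:1256449-1274498). Some neighbours differed from control with Trr RNAi and Trx RNAi more than with Set1 RNAi, in either direction. CG2145, which starts 3.43 kb from v, had differences of 0.04 in Set1, 2.56 in Trr and 2.80 in Trx RNAi libraries. Beside Jhbp1, Jhbp3 had -0.03, 3.27 and 3.46 in that order, and Jhbp2 had -0.15, -0.68 and -0.62. The pre-rRNA:CR45846 feature (rDNA:55104-59294) shares 51.3% of its bases with 18S, 5.8S and 2S rRNA features, and read pairs on shared bases were not assigned. Exon lengths had a median of 1654 bases in the members and 1828 in all FBgn features tested, and 13 of 16 members and 87.5% of the features tested are protein-coding genes.

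By family, the members were spread thin. The 16 genes include 5 with a CG number alone, of 4017 such genes tested, 1 of 1066 long or antisense noncoding RNA genes and 1 of 21 ribosomal RNA genes. None belonged to the cytochrome P450 genes (76 tested), glutathione S-transferases (26), Turandot stress proteins (6), antimicrobial peptides (35) or cuticle proteins (47). These families are a small part of the 12060 FBgn features tested, so nothing is read from the absence of members.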

How the data were processed

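Paired-end nuclear RNA-seq reads were trimmed, aligned and counted by the authors, and the deposited files hold raw counts of read pairs per feature, not normalized. Per the submitters' notes and the methods, Trimmomatic 0.39, cutadapt 3.7, HISAT2 2.2.1, SAMtools 1.17 and featureCounts of Subread 2.0.1 were used with BDGP6.46, over exons, without strand, and read pairs that overlapped several features were not counted. Antisense and shared sequence can therefore not be separated.

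Each of the 72 libraries was assigned to a genotype and time from its label, and 71 were used. CPM was taken over file totals. Features with at least 1 CPM in all 3 replicates of a group were tested (14767), in R 4.3.3 with edgeR 4.0.16 (TMM, quasi-likelihood, Benjamini-Hochberg), with genotype and time as one group factor for mean differences and a 24 h cosine for rhythms. Expression was called below 0.01 with a log2 change of 1 or more either way, and rhythms below 0.05, both on adjusted p. Alternatives were file totals, size factors and tests of DESeq2 1.42.0, RUVs factors, other filters, fewer samples and a replicate block. Tables and figures were made in Python 3.11.15 (pandas 2.3.3, numpy 2.4.6, matplotlib 3.10.9). The tests were checked on simulated data. Replicates share a stock, so p-values measure the spread between these libraries. The members and gene lists were chosen with earlier results of these data known. All 16 members are named, and other genes only as neighbours within 50 kb, stock markers, targets or the 3 nearest outside the threshold. No sequences were used here.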

Additional observations from a re-analysis of the deposited data

Results flagged for a closer look

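A time course that differed from control by the edgeR test of the interaction was seen for 12 combinations of member and knockdown, given here with adjusted p-values. With Set1 RNAi these were wb (0.0273), pre-rRNA:CR45846 (0.0335), CG31516 (0.00309) and CG11052 (0.0104). With Trr RNAi they were pre-rRNA:CR45846 (0.0058), v (0.000567), 7SLRNA:CR32864 (0.000639), CG12911 (0.00972) and Csgalnact (0.00248). With Trx RNAi they were pre-rRNA:CR45846 (0.00249), v (0.0114) and Csgalnact (0.00356). Of these, v and Csgalnact with Trr RNAi passed in every alternative run, and the other 10 were each lost in at least 1.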

How the results depend on the processing

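The choice of members moved with the rule's settings. The number of higher members was 20 with 0.5 CPM added, 1 with 5 CPM added, 4 with TMM-scaled totals, 5 with DESeq2 size factors, 5 with all 72 libraries, 66 at a difference of 1 and 2 at a difference of 2, in place of 10, and the number of lower members was 14 at a difference of 1, in place of 6. With a filter of 1 CPM in every library only 8 members were tested, and 8 were called against control in each knockdown, 3 for Trr RNAi against Set1 RNAi, 3 for Trx RNAi against Set1 RNAi and 0 for Trr RNAi against Trx RNAi, while rhythms passed for 5 with Set1 RNAi and 1 with Trx RNAi and changed rhythms for 2 in Set1, 2 in Trr and 1 in Trx RNAi libraries. With 3 RUVs factors, 3 were called for Trx RNAi against Set1 RNAi, and 2 rhythms and 6 changed rhythms with Trx RNAi. Rhythms with Trx RNAi numbered 2 with 1 RUVs factor, 2 with DESeq2 and 1 with DESeq2 size factors in edgeR. With only the compared genotypes fitted, rhythms numbered 4 with Trr RNAi, 4 with Trx RNAi and 5 in control, and changed rhythms with Set1 RNAi 1. Leaving out libraries gave 0 to 4 changed rhythms with Set1 RNAi, 0 to 3 rhythms with Trr RNAi, 0 to 2 rhythms with Trx RNAi and 1 to 5 changed rhythms with Trx RNAi. The settings without control ZT12 replicate 1 and without Set1 RNAi ZT12 replicate 3 were chosen after seeing the data. The causes were not tested.

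Replicate numbers did not pair the samples: correlations of deviations were -0.17 to 0.23 for the same number and -0.32 to 0.21 for different numbers. With a replicate block 1 call was lost, the rhythm of 7SLRNA:CR32864 in control (adjusted p = 0.0529), and the other 207 results were on the same side of the threshold. No paired result is therefore given elsewhere. Share of higher calls with file totals against TMM was 76.5% and 57.6% for Trr RNAi against Set1 RNAi, and 78.4% and 56.9% for Trx RNAi against Set1 RNAi. CG34227, pre-rRNA:CR45846, CG31516 and Osi2 have few counts in the group where they are low, which limits the precision of their folds.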
